A study of Mus musculus with 12 samples.

Results

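The mitochondrial respiratory chain was followed at the level of mRNA in cytotoxic T lymphocytes (CTL) that had lost PDK1 or in which Akt was inhibited. The genes were taken by symbol: those beginning with Nduf, Uqcr or Sdh, and the numbered Cox subunits, each with a probe set that names no other gene. This gave 77 of the 18193 genes with such a probe set. Of these, 36 carry the names of complex I, 4 of complex II, 8 of complex III and 17 of complex IV, and 12 are factors that assemble complex I or II. The 65 subunits are all encoded in the nucleus. Ndufs6, Ndufa11 and Cox7b were not analysed here. Where a gene had several probe sets, the brightest on average was read.

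By the labels, all CTL were made from splenic T cells of mice on a C57BL/6 background, activated for 48 h with 0.5 µg/ml of the CD3 antibody 2C11 and then kept for 5 days, with IL-2 at 20 ng/ml throughout. In the first experiment, the Cre control was TamoxCre CTL, in which a tamoxifen-regulated Cre recombinase is expressed from the ROSA26 locus, and PDK1 null CTL were PDK1fl/fl TamoxCre, with Pdpk1 flanked by loxP sites. Both groups received 0.6 µM 4-hydroxytamoxifen (4OHT) for the last 72 h, so Cre and 4OHT are shared by the control and the null cells. In the second experiment, wild type CTL kept in IL-2 and nothing else were compared with CTL given 1 µM AktI-1/2 (AktI), an allosteric Akt inhibitor, for the last 48 h. The cells of each mouse were split between the last 2 conditions, so wild type and AktI arrays of the same number share a mouse. There were 3 biological replicates in each of the 4 groups. Ages were not given in the sources used here.

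PDK1 phosphorylates and activates Akt and other kinases of the AGC family. The respiratory chain of the inner mitochondrial membrane passes electrons from NADH (complex I) or succinate (complex II) through ubiquinone to complex III, then through cytochrome c to complex IV, which reduces oxygen. Complexes I, III and IV pump protons and so drive the ATP synthase. Subunits of one complex are made in set proportions, some from mitochondrial DNA and most from nuclear genes whose promoters often hold sites for NRF1 and for ETS factors such as GABP. Activated T cells use both glycolysis and respiration.

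The markers of the labelled cell type were present: 7 of 7 CTL markers were above background in every group. Of 20 measured markers of other cells, 7 to 10 were above background in a group. Cd79b and Pax5 (B cell), Csf1r and Cd68 (myeloid) and Cd4 and Zbtb7b (CD4 T cell) were above it in every group. Cd14 (myeloid) and Cpa3 (basophil and mast cell) were above it in both groups of the first experiment only. Ms4a1, Itgam, Adgre1, Foxp3, Ncr1 and Alas2 were above it in none. In the AktI experiment the CTL marker Prf1, which encodes perforin, fell by 2.20 on the log2 scale, while Gzmb fell by 0.34 and Cd8b1 rose by 0.50 among the CTL markers. Of the markers of other cells, Cd68 (myeloid) fell by 1.30 and Mcpt8 (basophil), above background in wild type and not with AktI, fell by 1.09. Over the 6 myeloid markers the mean signal was 5.25 to 5.29 on the wild type arrays and 4.90 to 5.02 on the AktI arrays. In the first experiment it was 4.87 to 4.93 in Cre control and 4.96 to 5.12 in PDK1 null CTL, where alone Lyz2 (myeloid) was above background. Over the 4 B cell markers it was 5.02 to 5.20 in wild type and 5.21 to 5.24 with AktI, and the groups of the first experiment overlapped. The part of these changes in the results below was not tested. The 2 Pdpk1 probe sets read 8.96, 9.03 and 8.96, and 8.69, 8.75 and 8.78, in the Cre control. In PDK1 null CTL they read 9.05, 8.95 and 9.09, and 8.70, 8.67 and 8.74. The groups thus overlapped on both. Whether either probe set lies within the deleted exons is not given in the sources used here, so they do not check the genotype. Array medians ran from 4.61 to 4.63 in the first experiment and from 5.10 to 5.14 in the second, so that signals were set against each other only within an experiment. Fewer cells of a type and less RNA per cell cannot be told apart in these bulk samples, nor can a change shared by all transcripts be seen after array normalization.

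The 2 genes that passed with AktI were Ndufa6 and Cox7a2l, though neither passed with the mouse as a block. Their promoters are shown to give the sequence context of that result. RefSeq promoters of 300 bases (250 before and 50 after the start of transcription, GRCm38.p6) were given for 63 of the 77 genes, as 65 promoters. Capitals mark the motif GCATGCGC, the core bound by NRF1, and both are written 5′ to 3′ in the direction of transcription. The Ndufa6 promoter lies on the minus strand at chr15:82354242-82354541 and the Cox7a2l promoter on the minus strand at chr17:83514284-83514583.
Ndufa6: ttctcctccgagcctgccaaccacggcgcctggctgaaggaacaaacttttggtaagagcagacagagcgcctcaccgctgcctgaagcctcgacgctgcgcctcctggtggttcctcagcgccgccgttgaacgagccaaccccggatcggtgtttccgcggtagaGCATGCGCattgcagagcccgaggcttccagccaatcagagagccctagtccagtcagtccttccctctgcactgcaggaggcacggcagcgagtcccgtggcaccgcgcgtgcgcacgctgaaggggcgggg
Cox7a2l: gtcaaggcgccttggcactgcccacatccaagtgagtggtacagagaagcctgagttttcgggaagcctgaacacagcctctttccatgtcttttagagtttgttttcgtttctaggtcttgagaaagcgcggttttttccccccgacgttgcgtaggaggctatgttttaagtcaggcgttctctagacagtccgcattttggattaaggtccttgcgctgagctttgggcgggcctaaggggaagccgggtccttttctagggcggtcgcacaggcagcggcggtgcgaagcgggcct

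The Ndufa6 promoter held the NRF1 motif starting 83 bases before the start, and the Cox7a2l promoter held none of the motifs searched. Searched on both strands, GCATGCGC was in 8 of 65 member promoters (12.3%) and in 2.71% of all 32851 promoters. CCGGAAG, an ETS motif, was in 16 (24.6%) against 8.86% of all. AAGATGGCG, a YY1 motif, was in 5 (7.69%) against 1.4%. GTAAACA, a forkhead motif of the kind bound by the Foxo factors that Akt phosphorylates, was in 2 (3.08%) against 3.65%. The ETS motif ends with the letters AAG that open the YY1 motif, so 1 run of letters can hold both, and a match is a run of letters, not a bound site. The genes with an ETS match had a median log2 difference of -0.056 between PDK1 null and Cre control (n = 16), and those without had one of -0.031 (n = 47). With AktI these medians were -0.0041 and -0.013. For the NRF1 motif they were -0.054 (n = 8) and -0.036 (n = 55) after Pdpk1 deletion and -0.038 and 0.0041 with AktI. For the YY1 motif they were -0.038 (n = 5) and -0.038 (n = 58) after deletion and 0.095 and -0.013 with AktI, and for the forkhead motif -0.029 (n = 2) and -0.038 (n = 61), and -0.026 and -0.012.

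The first question was whether loss of PDK1, which the study set against inhibition of Akt in asking what sustains CTL metabolism, changed the mRNA of the respiratory chain. By limma, with p-values adjusted by Benjamini-Hochberg over all 45037 probe sets, 0 of the 77 genes passed an adjusted p of 0.05, where 432 of all genes did (2.37%), and SAM with a 1.5-fold minimum also passed 0. At an unadjusted p under 0.05, 8 genes were lower and 1 was higher, against 9.04% and 8.22% of all genes. The intervals of the differences bound what could have been missed. For 72 of the 75 genes above background in this experiment, the 95% interval of the change lay within 1.5-fold in either direction, and the same held for 91.2% of all genes above background. For 65 it lay within 1.25-fold, and for 56 within 1.2-fold, against 7046 and 4685 of all 11970 genes above background. Only 4 of the 75 had an estimated change of at least 1.2-fold, against 14.5% of all genes above background. Those 4 were Uqcrq, Ndufaf4, Cox7a1 and Cox6b2, and the last 2 are dim.

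The direction of these small differences was uneven. Of 77 genes, 55 were lower and 22 higher in PDK1 null than in Cre control CTL, and of all genes 9621 were lower and 8572 higher. The 3 null arrays were below all 3 control arrays for 22 genes, where 13.7% of all genes showed this, and above them for 5, where 10.9% did. The median log2 difference was -0.036, and over all genes it was -0.0091. The 3 null arrays did not share it: relative to the mean of the control arrays, the median over the 75 genes was -0.030 and 0.011 on replicates 1 and 2 and -0.10 on replicate 3, and the control arrays lay between -0.025 and 0.020. Without PDK1 null replicate 3 the median difference of all 77 genes was -0.012.

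The second question was whether inhibition of Akt, one of the kinases that PDK1 activates, changed these genes. With AktI, 2 of the 77 genes, Ndufa6 and Cox7a2l, rose and 0 fell. With the mouse as a block neither passed (limma, adjusted p = 0.055 and 0.084), and the counts that follow are without the block. Over all genes, 1199 of 18193 changed (6.59%) and 665 rose (3.66%), so the share of respiratory chain genes that rose was not above that of all genes. At an unadjusted p under 0.05, 4 were lower and 2 higher, against 10.7% and 9.62% of all genes. The 95% interval lay within 1.5-fold for 74 of 75 genes above background (90.9% of all), within 1.25-fold for 65 and within 1.2-fold for 52. Of all 11869 genes above background, 7419 had an interval within 1.25-fold and 5221 within 1.2-fold. An estimated change of at least 1.2-fold was seen for 3 of 75, against 15.6% of all, namely Ndufa6, Cox7a2l and the dim Cox7a1. Of 77 genes 42 were lower and 35 higher. The groups did not overlap for 11 lower and 7 higher genes, against 14.8% and 12.7% of all genes. The median log2 difference was -0.014, against -0.016 over all genes, and it was 0.014 without wild type replicate 2.

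**Figure D1:**
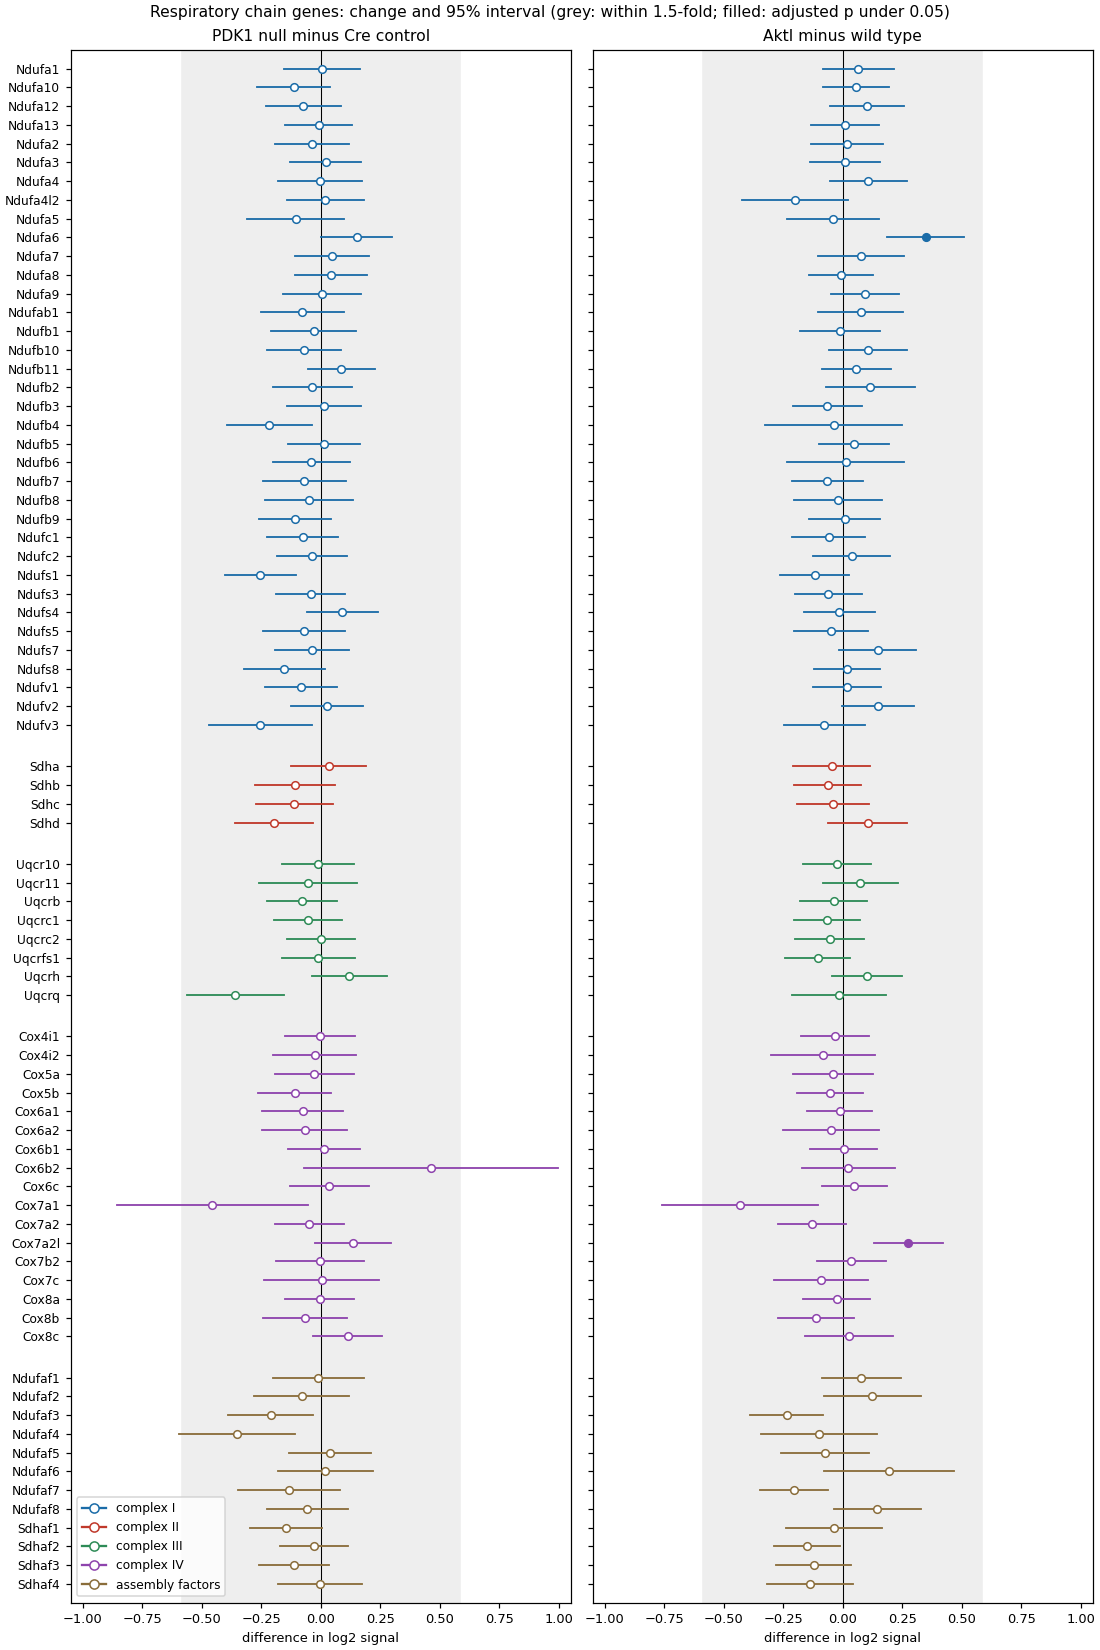
Difference in log2 signal (horizontal axis) for each of the 77 genes, PDK1 null minus Cre control on the left and AktI minus wild type on the right, with the 95% interval from limma, 3 arrays a group. Colours mark the complex, grey the range within 1.5-fold, and filled points an adjusted p under 0.05. Ndufa6 and Cox7a2l with AktI are the 2 filled points, and the wide intervals are those of Cox6b2 and Cox7a1.

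The SD of the log2 differences over the 75 genes above background was 0.120 for the Pdpk1 comparison and 0.113 for that of AktI, against 0.239 and 0.275 over all genes above background. This was not particular to the chain: the SDs were 0.082 and 0.068 over the ATP synthase genes, 0.106 and 0.096 over the mitochondrial ribosomal genes, and 0.107 and 0.098 over the citrate cycle genes. In the plot of sizes of change, the curve of the 75 genes lies above that of all genes at each size above 0 and up to 1.5-fold. Signals of these genes are mostly high, and no comparison was made with genes matched on signal.

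**Figure D2:**
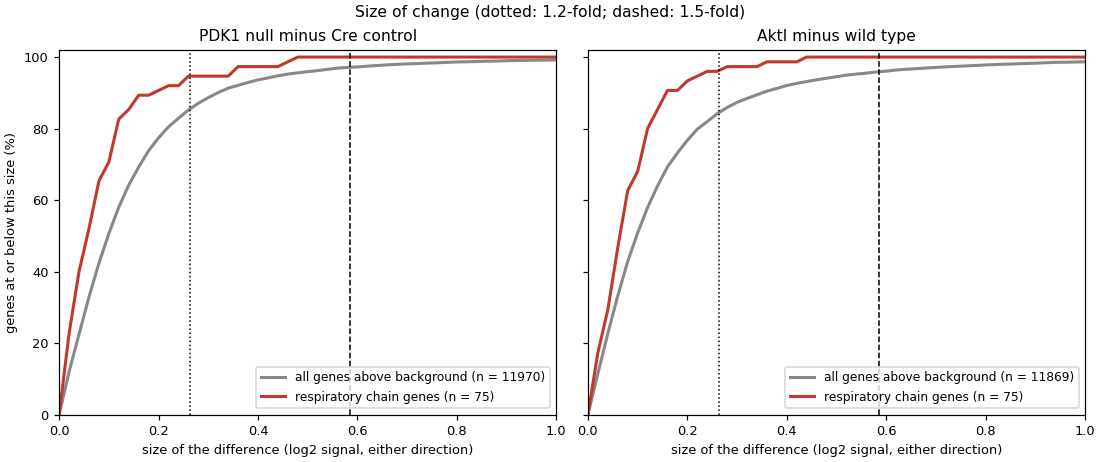
Percentage of genes (vertical axis) whose difference in log2 signal, in either direction, is at or below the size on the horizontal axis, for the 75 respiratory chain genes and for all genes above background in each comparison. At 0.26 the respiratory chain genes had reached 94.7% (PDK1 null) and 96% (AktI), and all genes 85.2% and 84.2%.

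Complex I takes electrons from NADH. Ndufa6, an accessory subunit, read 10.40, 10.43 and 10.26 in wild type CTL and 10.73, 10.69 and 10.72 with AktI, on the log2 scale. The lowest AktI array was thus above the highest wild type array, and the AktI arrays were close together. It rose by 0.35 (SE 0.071, 1.27-fold, adjusted p by limma = 0.027). In the first experiment it read 9.80, 9.73 and 9.81 in Cre control and 9.97, 9.91 and 9.91 in PDK1 null CTL. These groups did not overlap either, but the difference of 0.15 (95% interval 0.0014 to 0.30) did not pass (limma, adjusted p = 0.32). Ndufa6 has 1 probe set. With the mouse as a block, which pairs the AktI and wild type arrays, the adjusted p by limma was 0.055. Leaving out each of the 6 arrays in turn gave adjusted p from 0.044 to 0.095, and 1 of these 6 passed.

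The core of complex I carries the flavin and the iron-sulfur clusters, and 6 of its nuclear genes were measured. Ndufs1, the largest of them and a carrier of iron-sulfur clusters, read 9.18, 9.25 and 9.28 in Cre control and 8.95, 9.00 and 9.00 in PDK1 null CTL. Every null array was below every control array. The difference was -0.25 (SE 0.066, 95% interval -0.40 to -0.10, limma adjusted p = 0.11). It passed with an intensity trend and robust variances (adjusted p = 0.031), with dim probe sets left out (0.049) and in 1 limma model over all arrays (0.029). In the second experiment it read 10.22, 10.27 and 10.29 in wild type and 10.19, 10.10 and 10.14 with AktI, again without overlap. That difference was -0.12 (limma, adjusted p = 0.40). Ndufv2, a subunit of the NADH-oxidizing arm, differed by 0.025 after Pdpk1 deletion and by 0.15 with AktI (95% interval -0.0012 to 0.30). Ndufs7 differed by -0.038 and 0.15, Ndufs8 by -0.15 and 0.016, Ndufs3 by -0.043 and -0.061, and Ndufv1, which binds the flavin, by -0.084 and 0.019. None of these 5 passed in either comparison. The median of the 6 core genes was -0.063 in the Pdpk1 comparison and 0.018 in that of AktI. The other 30 had medians of -0.036 and 0.012.

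Among the accessory subunits, Ndufv3 read 10.31, 10.38 and 10.49 in Cre control and 10.22, 10.24 and 9.96 in PDK1 null CTL, lower on all null arrays, with replicate 3 the lowest. The difference was -0.25 (95% interval -0.47 to -0.039, limma adjusted p = 0.25). Ndufv3 lies 185 measured genes from Pdpk1 on chromosome 17, and Ndufb10 lies 30 away. Ndufb10 differed by -0.070 (95% interval -0.23 to 0.085) and its groups overlapped. Of the other genes named for complex I, Ndufb4 differed by -0.22, but its probe set was not above background in any group. Ndufa4, which is named for complex I and is known as a subunit of complex IV, differed by -0.0042 and 0.11, and its paralog Ndufa4l2 by 0.019 and -0.20, and neither passed. Over all 36 genes the median was -0.037 (24 genes lower) in PDK1 null CTL and 0.014 (14 genes lower) in AktI-treated CTL.

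Complex II, succinate dehydrogenase, is built from 4 nuclear genes, and it also works in the citrate cycle. Sdhd, a membrane anchor, read 9.87, 9.86 and 9.92 in Cre control and 9.75, 9.59 and 9.72 in PDK1 null CTL. The groups did not overlap, and the difference was -0.20 (SE 0.072, 95% interval -0.36 to -0.033, limma adjusted p = 0.24). In the second experiment it read 10.93, 11.09 and 11.04 in wild type and 11.15, 11.18 and 11.05 with AktI, which overlapped. That difference was 0.10 (limma, adjusted p = 0.53). The difference between the effects was -0.30 (limma, unadjusted p = 0.0092, adjusted p = 0.27), which did not pass.

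Sdhb, the iron-sulfur subunit, and Sdhc, the other anchor, differed by -0.11 each after Pdpk1 deletion, without overlap, and by -0.063 and -0.042 with AktI. Sdha, the flavoprotein, differed by 0.033 and -0.046. None passed. The median of the 4 was -0.11 after Pdpk1 deletion, and each null array had a negative median over the 4 genes (-0.086, -0.087 and -0.13). With AktI it was -0.044.

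Complex III passes electrons from ubiquinol to cytochrome c. Uqcrq, a small subunit of the complex, read 10.76, 10.93 and 10.84 in Cre control and 10.40, 10.65 and 10.41 in PDK1 null CTL. All null arrays were below all control arrays, with replicate 2 nearest to them. The difference was -0.36 (SE 0.089, 95% interval -0.56 to -0.15), or 1.28-fold lower, and did not pass (limma, adjusted p = 0.095). It passed with an intensity trend and robust variances (0.025), in 1 limma model over all arrays (0.040) and without PDK1 null replicate 2 (-0.44, adjusted p = 0.040). Its 3 other probe sets were dim, with group means from 4.12 to 5.04 in the first experiment, and gave 0.33, -0.10 and 0.0063. With AktI the difference was -0.016 (95% interval -0.21 to 0.18). The difference between the effects was -0.34 (limma, unadjusted p = 0.018, adjusted p = 0.35).

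The other 7 genes of complex III differed by -0.078 (Uqcrb) to 0.12 (Uqcrh, the hinge protein) after Pdpk1 deletion. Uqcrfs1, the Rieske iron-sulfur protein, differed by -0.010 after deletion and by -0.11 with AktI, where wild type read 11.87, 11.87 and 11.86 and AktI 11.79, 11.75 and 11.74. Those groups did not overlap, and the difference did not pass (limma, adjusted p = 0.43). The core proteins Uqcrc1 and Uqcrc2 differed by -0.053 and -0.00016 after deletion and by -0.066 and -0.055 with AktI. The median of the 8 genes was -0.033 after deletion and -0.031 with AktI, and the first was 0.0031 without PDK1 null replicate 3.

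Complex IV is cytochrome c oxidase. Cox7a2l, which is named for its likeness to the Cox7a subunits and is known as a factor that joins complexes III and IV in supercomplexes, read 11.59, 11.52 and 11.53 in wild type and 11.82, 11.86 and 11.77 with AktI. The groups did not overlap. It rose by 0.27 (SE 0.063, 1.21-fold, limma adjusted p = 0.045). All 3 of its probe sets were higher, by 0.27, 0.28 and 0.28, with limma adjusted p of 0.045, 0.059 and 0.036. With the mouse as a block the adjusted p by limma was 0.084. With each of the 6 arrays left out in turn it ranged from 0.080 to 0.16, and 0 of these 6 passed. After Pdpk1 deletion it read 10.92, 10.86 and 10.91 in the control and 11.04, 10.96 and 11.11 in null CTL, which did not overlap, with a difference of 0.14 (95% interval -0.024 to 0.29, limma adjusted p = 0.42).

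Several subunits of complex IV have a common isoform and one known from particular tissues. Cox4i1, Cox6a1, Cox6b1, Cox7a2 and Cox8a, the common isoforms, were above background on average in every group. After Pdpk1 deletion they differed by -0.0029, -0.076, 0.014, -0.048 and -0.0046, and with AktI by -0.033, -0.012, 0.0041, -0.13 and -0.025. Cox7a2 read 13.12, 13.22 and 13.19 in wild type and 13.04, 13.04 and 13.07 with AktI, without overlap (95% interval of the difference -0.27 to 0.014, limma adjusted p = 0.34). None of the common isoforms passed in either comparison.

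Cox7a1, known from heart and skeletal muscle, read 4.18, 4.98 and 4.66 in Cre control and 4.14, 4.24 and 4.06 in PDK1 null CTL, and 5.77, 6.06 and 5.64 in wild type and 5.14, 5.39 and 5.65 with AktI. The groups overlapped in both experiments. The differences were -0.46 (95% interval -0.86 to -0.055, limma adjusted p = 0.26) and -0.43 (-0.76 to -0.10, limma adjusted p = 0.15). The background level was 4.45 in the first experiment and 4.99 in the second, so that in null CTL the mean of Cox7a1 was below it. Cox6b2, known from testis, read 5.17, 4.60 and 5.49 in Cre control and 5.28, 5.44 and 5.93 in null CTL, and the difference of 0.46 had an interval from -0.069 to 0.99. These 2 genes had the widest intervals of the 77, and Cox7b2, the testis isoform of Cox7b, was not above background in any group. Cox4i2, Cox6a2, Cox8b and Cox8c gave differences between -0.069 and 0.11 after deletion and between -0.11 and 0.027 with AktI, and none passed. Over the 17 genes the median was -0.0046 after deletion and -0.033 with AktI.

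**Figure D3:**
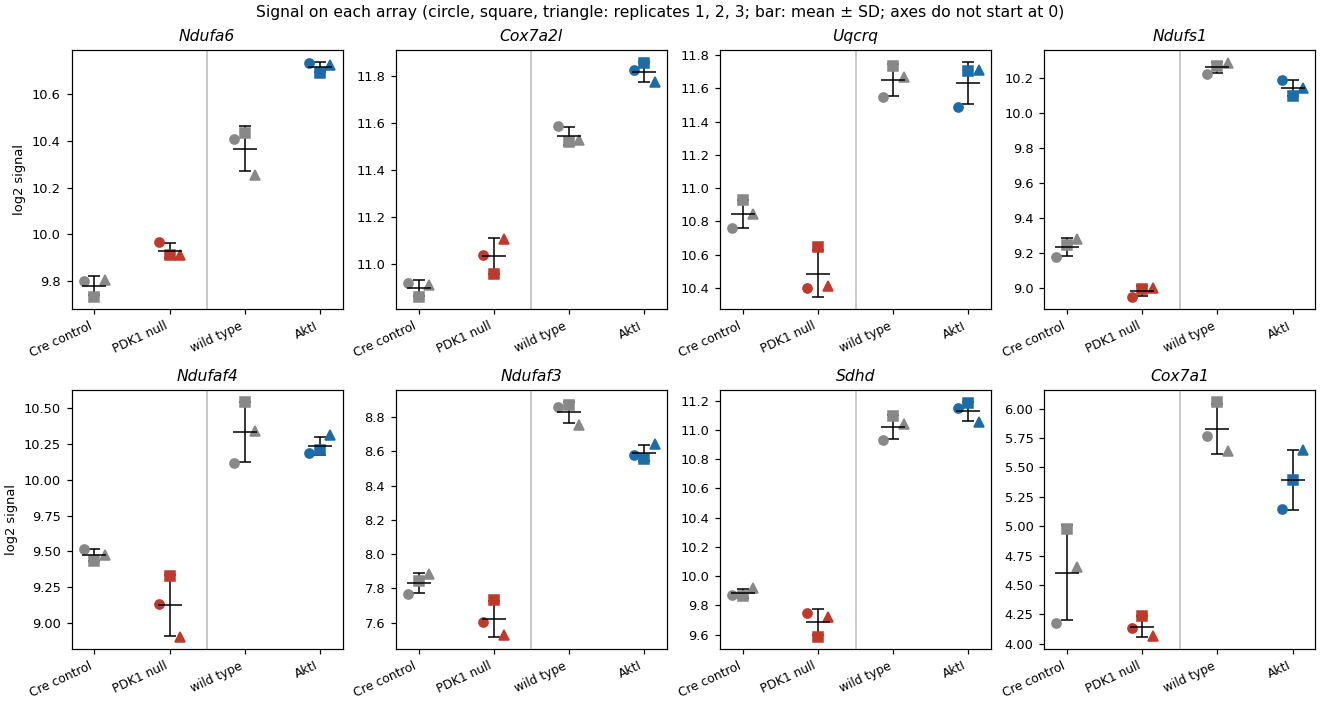
Log2 signal (vertical axes, which do not start at 0) on each array for 8 genes, by group, with the mean and SD of 3 arrays; circle, square and triangle are replicates 1, 2 and 3, and a line parts the 2 experiments, whose signals are not on 1 scale. AktI arrays of Ndufa6 and Cox7a2l lie above their wild type arrays, and PDK1 null arrays of Uqcrq, Ndufs1, Ndufaf4, Ndufaf3 and Sdhd lie below their Cre control arrays.

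The assembly factors build the complexes and are not part of them when finished. Ndufaf4, a complex I assembly factor, read 9.51, 9.43 and 9.48 in Cre control and 9.13, 9.33 and 8.90 in PDK1 null CTL. The null arrays were lower and more spread than the control arrays. The difference was -0.35 (SE 0.11, 95% interval -0.60 to -0.11, limma adjusted p = 0.16), and a second probe set gave -0.30. With AktI the difference was -0.10 (95% interval -0.34 to 0.14), and the second probe set gave 0.11. Ndufaf3, which works with Ndufaf4 in the same early step, read 7.77, 7.85 and 7.88 in Cre control and 7.60, 7.73 and 7.53 in null CTL.

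For Ndufaf3 the AktI experiment gave 8.86, 8.87 and 8.75 in wild type and 8.58, 8.55 and 8.64 with AktI. It was lower without overlap in both experiments, by -0.21 (limma, adjusted p = 0.25) and -0.24 (limma, adjusted p = 0.094). The second of these passed with an intensity trend and robust variances (0.024), with dim probe sets left out (0.033) and with the mean of the probe sets of each gene (0.045). With the mouse as a block it did not pass (limma, adjusted p = 0.16). Ndufaf7, a complex I assembly factor, read 8.56, 8.64 and 8.56 in wild type and 8.40, 8.39 and 8.36 with AktI. The difference of -0.21, without overlap, did not pass (limma, adjusted p = 0.12). It passed with an intensity trend and robust variances (0.039) and with dim probe sets left out (0.037). With the mouse as a block the adjusted p of Ndufaf7 by limma was 0.17. The complex II factors Sdhaf1 and Sdhaf2 differed by -0.15 and -0.028 after deletion and by -0.037 and -0.15 with AktI, and none passed. Of the 12 factors, 10 were lower after deletion and 8 with AktI, with medians of -0.069 and -0.087. The second was -0.0040 without wild type replicate 2.

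**Figure D4:**
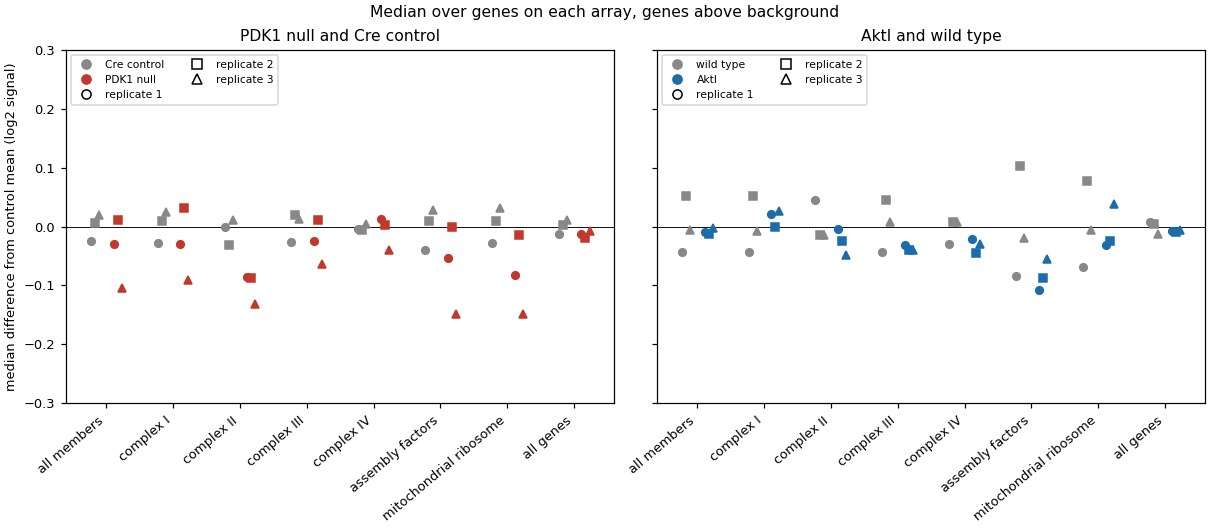
Median, over the genes above background of each set, of the difference in log2 signal from the mean of the control arrays (vertical axis), for each of the 12 arrays, with Cre control and PDK1 null on the left and wild type and AktI on the right. Over all members PDK1 null replicate 3 lies at -0.10 and the other arrays of that experiment between -0.030 and 0.020.

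The effects of PDK1 loss and Akt inhibition on the chain were set side by side. In 1 limma model over all 12 arrays, the difference between the effects passed for 0 of the 77 genes, against 112 of all genes (0.616%). At an unadjusted p under 0.05 it was 3 of the 77 genes, Sdhd, Uqcrq and Ndufa6, against 2015 of all 18193 genes. Over the 75 genes above background in both experiments, 34 were lower in both comparisons and 15 higher in both. Of all 11449 genes above background in both, 4132 were lower in both comparisons and 3359 higher in both. Across the 75 genes, which are not independent and share arrays, Pearson's r of the log2 differences was 0.465, against 0.612 over the 11449.

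The chain's partners were read from gene lists. No ATP synthase gene passed in either comparison (17 measured, medians -0.035 and 0.0035, with 11 and 8 lower, and 1 and 0 at an unadjusted p under 0.05). Of 76 mitochondrial ribosomal genes, 0 passed after Pdpk1 deletion by limma, 59 were lower and the median was -0.076. At an unadjusted p under 0.05, 18 were lower and 1 was higher, against 9.04% and 8.22% of all genes, and 26 were lower without overlap, against 13.7%. Relative to the control mean, the median of this list was -0.082, -0.014 and -0.15 on null replicates 1, 2 and 3, and -0.028 to 0.032 on the control arrays. With AktI 1 of the 76 rose, Mrpl58, a peptidyl-tRNA hydrolase of the large subunit, by 0.34 (SE 0.064, limma adjusted p = 0.021), and 44 were lower. None of 17 citrate cycle genes passed in either comparison. After deletion 15 were lower (median -0.094), and 7 were lower without overlap, against 13.7% of all genes. At an unadjusted p under 0.05, 4 were lower and 0 higher, against 9.04% and 8.22% of all genes. Their median was -0.085, -0.075 and -0.15 on null replicates 1, 2 and 3, and -0.029 to 0.039 on the control arrays. With AktI 11 were lower (median -0.051), and at an unadjusted p under 0.05, 1 was lower and 1 higher. Dlat, a subunit of pyruvate dehydrogenase, had the largest difference after deletion (-0.36, 95% interval -0.54 to -0.18, limma adjusted p = 0.066). With AktI the largest was that of Idh2, at 0.22.

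Of 7 genes that carry electrons to or between the complexes, Gpd2 fell with AktI. After Pdpk1 deletion 7 of the 7 were lower (median -0.12), and with AktI 5 were lower (median -0.019). Gpd2 is the mitochondrial glycerol 3-phosphate dehydrogenase, which passes electrons from cytosolic NADH to ubiquinone. It read 10.79, 10.62 and 10.86 in wild type and 9.88, 9.81 and 9.99 with AktI, and the groups were far apart relative to the spread within them. It fell by 0.87 on the log2 scale (limma, adjusted p = 0.00093), and it passed in all 14 alternatives with an adjusted p. After Pdpk1 deletion it read 10.26, 10.61 and 10.32 in the control and 9.78, 10.19 and 10.11 in null CTL, lower without overlap (-0.37, limma adjusted p = 0.22). The difference between these effects was 0.49 (limma, adjusted p = 0.28).

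Of 13 mitochondrially encoded subunits, 1 was measured here. This was ND5, a proton-pumping subunit of complex I, which read 10.96, 10.92 and 10.78 in wild type and 11.50, 11.26 and 11.26 with AktI. It rose by 0.45 (SE 0.088, limma adjusted p = 0.024) and differed by -0.013 after Pdpk1 deletion (95% interval -0.28 to 0.25). The difference between these effects was -0.46 (limma, adjusted p = 0.29). The call of ND5, like that of Mrpl58, held for 1 of 6 arrays left out.

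Among 6 assembly factors of complex III, Ttc19 fell in both comparisons. It read 6.01, 6.19 and 6.09 in Cre control and 5.55, 5.60 and 5.48 in PDK1 null CTL, and fell by 0.55 on the log2 scale (SE 0.075, limma adjusted p = 0.013). In wild type it read 7.03, 7.13 and 7.18 and with AktI 6.60, 6.87 and 6.78, and fell by 0.36 (limma, adjusted p = 0.049). Leaving out each of 6 arrays in turn, 3 kept the first call and 0 the second. None of 17 assembly factors of complex IV passed, with the largest differences for Cox15, a heme A synthesis gene (-0.31 after deletion and -0.24 with AktI, limma adjusted p = 0.13 and 0.087). Of these 17 factors, 13 were lower after deletion (median -0.12) and 10 with AktI (median -0.026).

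None of 7 complex I assembly genes of other names passed, with the largest difference for Tmem126b (0.23 and 0.25). Among 12 regulators of mitochondrial genes, Tfb1m, which methylates mitochondrial ribosomal RNA, fell by 0.42 after Pdpk1 deletion (limma, adjusted p = 0.043) and differed by -0.085 with AktI. Gabpb1, a subunit of the ETS factor GABP, fell by 0.28 with AktI (limma, adjusted p = 0.048) and differed by -0.22 after deletion. With the replicate number as a block, neither passed (limma, adjusted p = 0.056 and 0.097), and with each of 6 arrays left out Tfb1m passed 1 time and Gabpb1 0 times.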

How the data were processed

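The authors hybridized RNA of 12 CTL cultures to Affymetrix mouse arrays, and the log2 signals they deposited come from Affymetrix Expression Console 1.1, by robust multichip averaging (RMA). Controls (64 of 45101 probe sets) were dropped, which left 45037 for testing. Of these 34945 name 1 gene, and 10 that name a respiratory chain gene with another gene were left out.

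The 6 arrays of a comparison were fitted by themselves, without covariates, by limma 3.58.1 (lmFit, eBayes) in R 4.3.3, and the Benjamini-Hochberg adjustment ran over all 45037 probe sets. A gene "rose" or "fell" at an adjusted p under 0.05, with no fold minimum. Effects were compared by the interaction term when all 12 arrays were fitted with 4 group means. Intervals are 95% intervals of limma. Background was set per experiment at the 95th percentile of 80 olfactory and vomeronasal receptor probe sets, and a gene is above background when 1 group mean is. A permutation of 3 against 3 arrays cannot give a p below 0.1, and the number of arrays limits the precision. The fit was tested on simulated data.

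The pairing of wild type and AktI comes from the labels, which state that cells of each replicate were split. After group means were removed, arrays of the same number correlated at 0.034 to 0.17 and others at -0.10 to 0.038. PDK1 null and Cre control share only a number (-0.011 to 0.050 against -0.074 to 0.041).

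The members and lists were chosen with earlier results of these data known. Genes are named by rule: those that passed, the 3 smallest adjusted p per complex and comparison, fixed core subunits and isoforms, those within 200 measured genes of Pdpk1, and the leading genes of each list. Alternatives are quantile normalization, equal medians, trend and robust variances, no dim probe sets, a 1.5-fold minimum, means of probe sets, the study's SAM with a 1.5-fold minimum, 1 model, leaving out each array, and a replicate block.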

Additional observations from a re-analysis of the deposited data

Results flagged for a closer look

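Among the genes checked for cell type, 2 had effects that differed between the experiments by a test of the difference itself. The effect on Prf1, which encodes perforin, was -0.67 after Pdpk1 deletion and -2.20 with AktI, a difference of 1.53 (limma interaction, adjusted p = 0.026). The effect on Cd68, a myeloid marker, was 0.31 after Pdpk1 deletion and -1.30 with AktI, a difference of 1.61 (limma interaction, adjusted p = 0.013). For neither gene did the effect after Pdpk1 deletion pass in that comparison alone. No respiratory chain gene differed by the test of the difference.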

How the results depend on the processing

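The number of respiratory chain genes that passed with AktI was 2. It was 0 with a 1.5-fold minimum, by SAM and with the replicate block, 4 with trend and robust variances and with dim probe sets left out, and 0 to 1 with each array left out in turn. After Pdpk1 deletion it was 0. It was 2 with trend and robust variances and in 1 model over all arrays, 1 with dim probe sets left out, and 0 to 1 with each array left out, the 1 without PDK1 null replicate 2. The block changed no call of a respiratory chain gene after deletion. With dim probe sets left out, the number of tests and the variance estimates both change. The cause of these differences in count was not tested. The number with intervals within 1.5-fold stayed at 71 to 73 after deletion and at 74 with AktI under the alternatives that give it. Of 2036 alternative values of single genes, 66 lost a call, 11 gained one, and 73 changed sign without being called. The median SE of a log2 difference over these genes was 0.070 after deletion and 0.067 with AktI, which the 3 arrays a group limit, and the smallest difference that passed was 0.27.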
